A study of Homo sapiens with 21 samples.

Results

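RFXANK, a subunit of the DNA-binding RFX complex, had a lower level with both reagents against B4GALNT1 than with their own controls, and was described together with 6 genes that work beside it or resemble it. The 7 genes, of 27142 in the deposited table, were RFXANK, its partner subunits RFX5 and RFXAP, the coactivator CIITA, and the related factors RFX1, RFX3 and RFX7. RFXANK was chosen on its measured levels in 4 groups of libraries (each B4GALNT1 reagent and its control). Its values there, and in other comparisons that use those libraries, are therefore a description with no test. The other 6 genes were taken by name, as partners or relatives.

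RFX5, RFXAP and RFXANK form a trimer that binds the X box of MHC class II promoters, next to the CCAAT-binding factor NF-Y and factors of the CREB and ATF family. CIITA does not bind DNA itself, docks on this assembly and switches the genes on in antigen-presenting cells or after interferon gamma. Inherited loss of RFXANK, RFX5, RFXAP or CIITA causes bare lymphocyte syndrome, an immunodeficiency without MHC class II on the cell surface. RFX1, RFX3 and RFX7 share the winged-helix DNA-binding domain with RFX5. The letters Rfx in RfxCasR name the source bacterium of a nuclease and have no link to these factors.

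All libraries came from HEK 293FT, an established kidney-derived human cell line that carries SV40 large T antigen. Plasmids were delivered with a lipid reagent and RNA was taken 48 h later. The 7 groups, of 3 libraries each, received an ANXA4 shRNA, a B4GALNT1 shRNA, a non-targeting (NT) shRNA, RfxCasR with a B4GALNT1 gRNA, RfxCasR with an NT gRNA, RfxCasR with an ANXA4 array, or RfxCasR with an NT array. A short hairpin RNA (shRNA) is processed into a small RNA that directs Argonaute, whereas RfxCasR is a CRISPR nuclease that cuts RNA matched by its guide RNA (gRNA). All groups are transient transfections of this 1 line, and each control carries the same kind of reagent without a target. The series calls the 3 libraries of a group biological replicates without saying what was repeated, and p-values reflect only how far such libraries scatter, which may be technical.

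Depth recovered from the values was 21.4 to 30.7 M reads in the 15 libraries without arrays and 34.7 to 39.5 M in the 6 with arrays. B4GALNT1, the ganglioside-synthesis target, averaged 2.78 ± 0.183 FPKM with its shRNA against 4.08 ± 0.179 with NT shRNA, and 2.21 ± 0.167 with its gRNA against 5.89 ± 0.907 with NT gRNA (SD, n = 3 each). FPKM is a read count scaled to exon length and library depth. ANXA4, the annexin target, was 2.40 ± 0.220 FPKM with its shRNA against 5.90 ± 0.378 with NT shRNA. It went against the labels of the arrays, with 7.03 ± 0.240 FPKM in the libraries labelled ANXA4 array and 3.03 ± 0.427 in those labelled NT array (SD, n = 3 each). The 5 HEK 293 markers (NEFL, NEFM, VIM, KRT8, KRT18) summed to 531 to 847 FPKM over the 21 libraries. The 8 markers of blood cells, which carry MHC class II in the body, summed to 0.982 to 3.53 FPKM. MS4A1 was at 0 in every library, and 6 of the 8 stayed under 1 FPKM in all of them.

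The promoters of RFXANK, of its partner RFX5, and of RFX7 and RFX1, which moved in opposite directions with the B4GALNT1 shRNA, are printed so that their starts can be compared. They run from 250 bases before to 50 after the first start listed by RefSeq on GRCh38.p14. These starts were not matched to those of the transcripts measured on hg19, so a window may not belong to the measured transcript. RFXANK is at chr19:19192008-19192307 on the plus strand, RFX5 at chr1:151347203-151347502, RFX7 at chr15:56245033-56245332 and RFX1 at chr19:14006271-14006570, the last 3 on the minus strand. Capitals mark matches on either strand to CCAAT, the box read by NF-Y, and to GTTGCC, a core of the site bound by RFX proteins (GGCAAC where it lies on the other strand).
RFXANK promoter: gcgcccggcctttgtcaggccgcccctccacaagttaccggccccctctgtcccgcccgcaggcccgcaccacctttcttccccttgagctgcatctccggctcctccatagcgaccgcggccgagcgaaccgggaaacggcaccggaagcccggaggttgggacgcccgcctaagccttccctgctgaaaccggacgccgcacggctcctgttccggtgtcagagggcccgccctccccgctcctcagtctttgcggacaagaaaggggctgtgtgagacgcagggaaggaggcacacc
RFX5 promoter: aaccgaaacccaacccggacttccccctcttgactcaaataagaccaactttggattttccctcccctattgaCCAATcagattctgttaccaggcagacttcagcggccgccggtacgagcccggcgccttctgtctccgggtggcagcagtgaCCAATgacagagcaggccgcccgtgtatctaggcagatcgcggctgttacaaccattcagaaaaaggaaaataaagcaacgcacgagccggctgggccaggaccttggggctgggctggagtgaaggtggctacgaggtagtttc
RFX7 promoter: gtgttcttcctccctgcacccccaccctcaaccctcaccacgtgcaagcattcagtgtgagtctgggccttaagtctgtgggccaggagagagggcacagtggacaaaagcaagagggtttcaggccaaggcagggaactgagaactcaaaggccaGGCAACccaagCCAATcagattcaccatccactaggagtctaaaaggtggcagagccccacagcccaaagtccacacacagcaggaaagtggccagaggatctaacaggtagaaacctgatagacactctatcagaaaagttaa
RFX1 promoter: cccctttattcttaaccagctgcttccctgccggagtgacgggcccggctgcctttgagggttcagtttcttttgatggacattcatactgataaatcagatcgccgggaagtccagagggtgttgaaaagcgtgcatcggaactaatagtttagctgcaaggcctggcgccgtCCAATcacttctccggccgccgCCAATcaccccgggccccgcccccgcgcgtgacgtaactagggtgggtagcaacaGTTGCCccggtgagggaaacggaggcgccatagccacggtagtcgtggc
RFX5 held 2 CCAAT matches, RFX1 held 2 CCAAT matches and 1 GTTGCC match, and RFX7 held 1 of each. In this window of RFXANK, RFXAP and RFX3 neither string was present. Other listed starts of a gene can differ, with CCAAT at 1 of 3 starts of RFX5, 1 of 2 of RFX7 and 1 of 2 of RFX3. GTTGCC was likewise at 1 of 2 starts of RFX7. Of 35116 promoters of the same length in the table, 34.6% held CCAAT and 12.2% held GTTGCC. No matches overlapped in the printed windows, and a match is a string of letters, not a measured site.

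RFXANK carries ankyrin repeats and holds the complex together. On hg19, the build of the deposited files, it lies on chromosome 19 from 19303575 to 19312678 on the plus strand. It had 10.7, 11.4 and 10.9 FPKM in the B4GALNT1 shRNA libraries, against 32.2, 31.7 and 33.4 FPKM in the NT shRNA libraries. It had 21.1, 21.1 and 23.3 FPKM with the B4GALNT1 gRNA, against 28.9, 28.3 and 27.9 FPKM with the NT gRNA. With each reagent all 3 libraries lay below all 3 controls. In bulk RNA a partial loss in every cell and a larger loss in some cells cannot be told apart. The mean was 66.0% lower with the shRNA (log2 change -1.48 on the log2(FPKM + 1) scale, SE 0.06) and 23.0% lower with the gRNA (-0.36, SE 0.06). The authors' deposited table for the gRNA gives RFXANK a log2 fold change of -0.39.

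The remaining groups held more RFXANK RNA than both B4GALNT1 groups. The ANXA4 shRNA libraries had 30.4, 26.8 and 26.9 FPKM, which is 13.6% below the NT shRNA mean and again below all 3 of those controls. The libraries labelled ANXA4 array had 32.3, 30.6 and 29.6 FPKM, and those labelled NT array had 26.9, 33.3 and 28.8 FPKM. These array groups overlapped, and this comparison uses no library on which RFXANK was chosen. Its change there was 0.06 (SE 0.06, limma adjusted p = 0.791, 95% interval -0.07 to 0.19). The fit shared its spread over all 7 groups. RFXANK scattered most in the libraries labelled NT array (SD 3.27 FPKM), so this interval may be too narrow. From low to high by mean, the groups ran B4GALNT1 shRNA, B4GALNT1 gRNA, ANXA4 shRNA, NT gRNA, labelled NT array, labelled ANXA4 array and NT shRNA. The first 2 steps of that order were free of overlap, and each later neighbour overlapped the group before it.

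**Figure D1:**
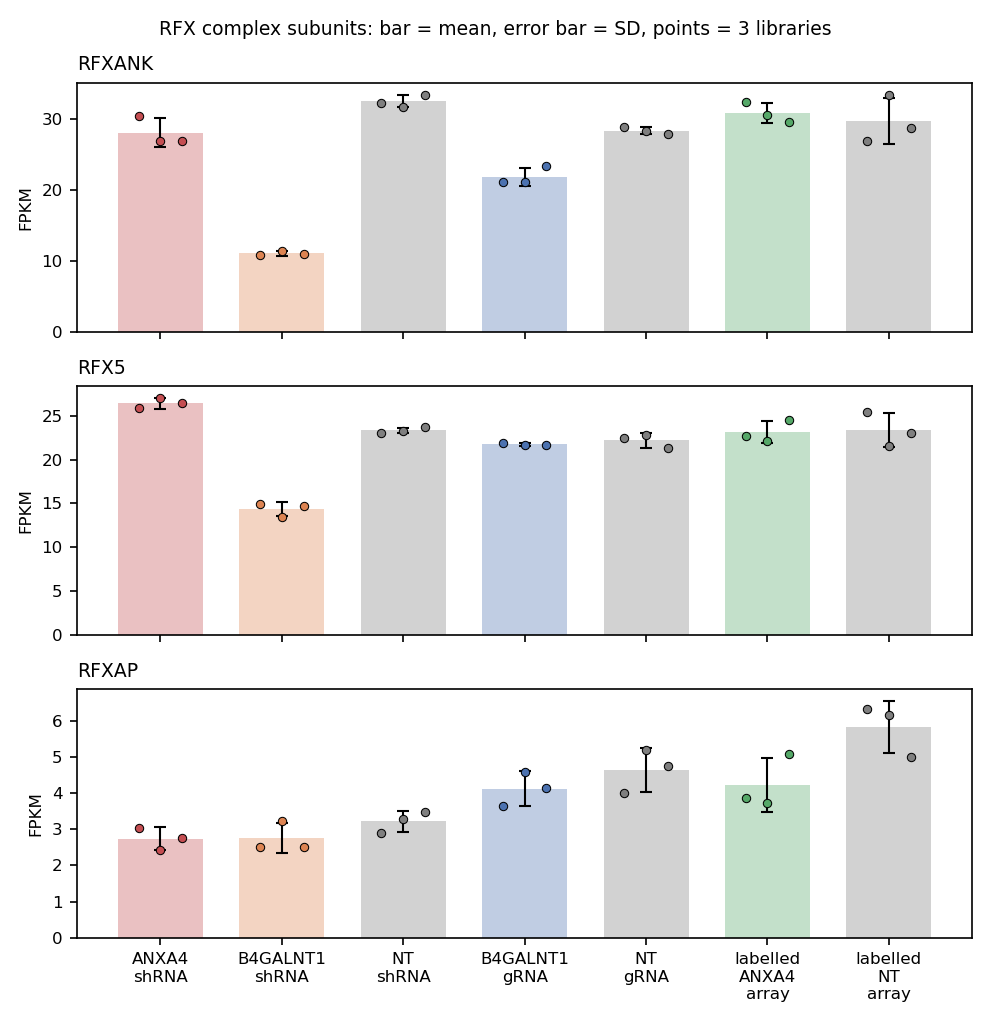
FPKM of RFXANK, RFX5 and RFXAP in the 7 groups (bars, mean; error bars, SD; points, 3 libraries each). RFXANK lay at 11.0 FPKM with the B4GALNT1 shRNA and 21.8 FPKM with the B4GALNT1 gRNA, RFX5 was lowest in the B4GALNT1 shRNA libraries at 14.3 FPKM, and RFXAP stayed under 6.4 FPKM.

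RFX5, the large DNA-binding subunit (hg19 chromosome 1, 151313116 to 151319769, minus strand), fell with the B4GALNT1 shRNA. It had 14.9, 13.4 and 14.7 FPKM in the B4GALNT1 shRNA libraries, against 23.1, 23.3 and 23.7 FPKM in the NT shRNA libraries. The groups did not overlap and the mean was 38.7% lower (log2 change -0.67, SE 0.05, limma adjusted p = 5.51e-09). The B4GALNT1 gRNA libraries had 21.9, 21.6 and 21.7 FPKM, against 22.5, 22.8 and 21.3 FPKM with the NT gRNA. Those groups overlapped, with a change of -0.03 (SE 0.05, limma adjusted p = 1, 95% interval -0.14 to 0.08). The change with the shRNA minus that with the gRNA was -0.64 (SE 0.07, limma adjusted p = 2.39e-06). The same difference for RFXANK, a description with no test, was -1.11 (SE 0.09). RFX5 thus differed between the 2 reagents, and RFXANK, chosen for being lower with each, lay further apart between them.

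With the ANXA4 shRNA RFX5 rose. It had 25.8, 27.1 and 26.4 FPKM there, above all 3 NT shRNA libraries (0.17, SE 0.05, limma adjusted p = 0.00986, 13.2% higher). Set directly against the ANXA4 shRNA, the B4GALNT1 shRNA libraries were lower by -0.84 on the log2 scale (SE 0.05, limma adjusted p = 1.88e-10). Between the array groups RFX5 changed by -0.01 (SE 0.05, limma adjusted p = 0.969), and between NT gRNA and NT shRNA by -0.07 (SE 0.05, limma adjusted p = 0.279).

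The ratio of RFXANK to RFX5, both in FPKM and so per length of exon, describes the balance of the pair. It averaged 0.771 ± 0.0696 with the B4GALNT1 shRNA against 1.39 ± 0.0253 with NT shRNA, and 1.00 ± 0.0626 with the B4GALNT1 gRNA against 1.28 ± 0.0367 with NT gRNA (SD, n = 3 each). In each pair the groups did not overlap. The ANXA4 shRNA libraries, with less RFXANK and more RFX5, were at 1.06 ± 0.101. The ratio was 1.34 ± 0.116 in the libraries labelled ANXA4 array and 1.28 ± 0.243 in those labelled NT array. Because RFXANK was chosen for its low values, these ratios carry no test.

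**Figure D2:**
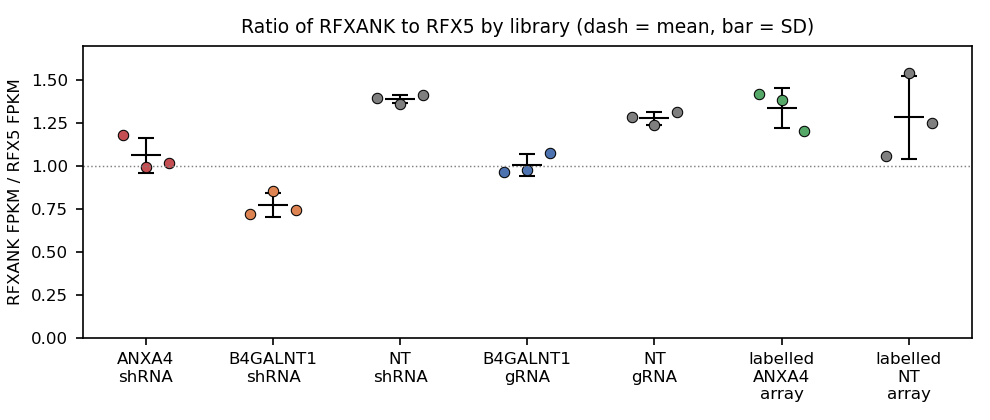
Ratio of RFXANK to RFX5 (FPKM over FPKM) in each library (points), with the group mean (dash) and SD (bar). All 3 B4GALNT1 shRNA libraries lay under 1, all 3 NT shRNA libraries above 1.3, and the B4GALNT1 gRNA and ANXA4 shRNA libraries between 0.961 and 1.18.

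RFXAP, the third subunit (chromosome 13, 37393339 to 37403740, plus strand), was the least abundant of the trimer at 2.43 to 6.33 FPKM, or 146 to 631 reads per library. It had 2.51, 3.23 and 2.51 FPKM with the B4GALNT1 shRNA, and 3.05, 2.43 and 2.76 with the ANXA4 shRNA, against 2.91, 3.28 and 3.48 with NT shRNA. Both shRNA groups overlapped the control. The change was -0.17 in each (SE 0.11, limma adjusted p = 0.227 and 0.211), with 95% intervals of -0.41 to 0.06 in both cases. In the B4GALNT1 gRNA libraries RFXAP was at 3.65, 4.60 and 4.14 FPKM, against 4.002, 5.20 and 4.75 FPKM with NT gRNA (-0.14, SE 0.11, limma adjusted p = 1, 95% interval -0.38 to 0.10). RFXAP rose in NT gRNA libraries relative to NT shRNA libraries by 0.42 (SE 0.11, limma adjusted p = 0.00534, 44.3% higher).

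The libraries labelled ANXA4 array had 3.88, 3.74 and 5.10 FPKM of RFXAP, and those labelled NT array 6.33, 6.18 and 5.01 FPKM. The change was -0.39 (SE 0.11, limma adjusted p = 0.181) and was not called. On reads recovered from the FPKM values, limma's voom gave -0.47 (adjusted p = 0.0213). The authors' deposited table gives 0.47 with the opposite sign, with their adjusted p = 0.3285. Its signs are also opposite for ANXA4, RFXANK, RFX5, RFX1 and RFX7, though not for RFX3. Whether the array labels are swapped was not tested, so directions between these groups are uncertain.

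CIITA, the coactivator (chromosome 16, 10971055 to 11018840, plus strand), was at or near 0. Its recovered reads numbered 2 in 1 NT shRNA library (0.018 FPKM) and 4 in 1 library labelled ANXA4 array (0.025 FPKM), and 0 in the other 19. At these depths 3 reads, roughly the upper 95% limit on the expected count when 0 reads are seen, correspond to 0.0164 to 0.0303 FPKM. This limit covers counting error only. CIITA did not pass the filter of 1 FPKM in 3 libraries, so no change was tested and 5 of the 6 genes beside RFXANK entered the fit.

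Across those 5 genes, the B4GALNT1 shRNA changed 4 relative to NT shRNA, 1 up and 3 down, where 44.4% of all tested genes were called, 18.4% up and 26% down. The ANXA4 shRNA changed 3, 2 up and 1 down, against a background of 51.8%. Between NT gRNA and NT shRNA 4 were called, 1 up and 3 down, against 48.9%. The B4GALNT1 shRNA set against the ANXA4 shRNA gave 2, both down, where 46.7% of all genes were called, 27.1% down and 19.6% up. The B4GALNT1 shRNA change minus the gRNA change was called for 4, 1 positive and 3 negative, against 29.8%, of which 16.9% were negative. The B4GALNT1 gRNA gave 0 in limma, 0 at an unadjusted p under 0.05 and 0 with voom, where 0.00731% of all genes were called, the 1 gene being B4GALNT1. RFXANK was chosen on these libraries, so its absence from that call is no test of it. The array comparison gave 0 in limma, where 0.285% were called (0.146% up), with RFXAP alone at an unadjusted p under 0.05 and called with voom. Beside shares of this size, 3 or 4 calls among 5 genes are no result about these genes as a group. The called genes in the B4GALNT1 shRNA comparison split 2523 up and 3554 down, and 3162 up and 2775 down when each library was centred on its median. The same centring gave 3698 up and 2860 down between NT gRNA and NT shRNA, in place of 3066 and 3621.

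**Figure D3:**
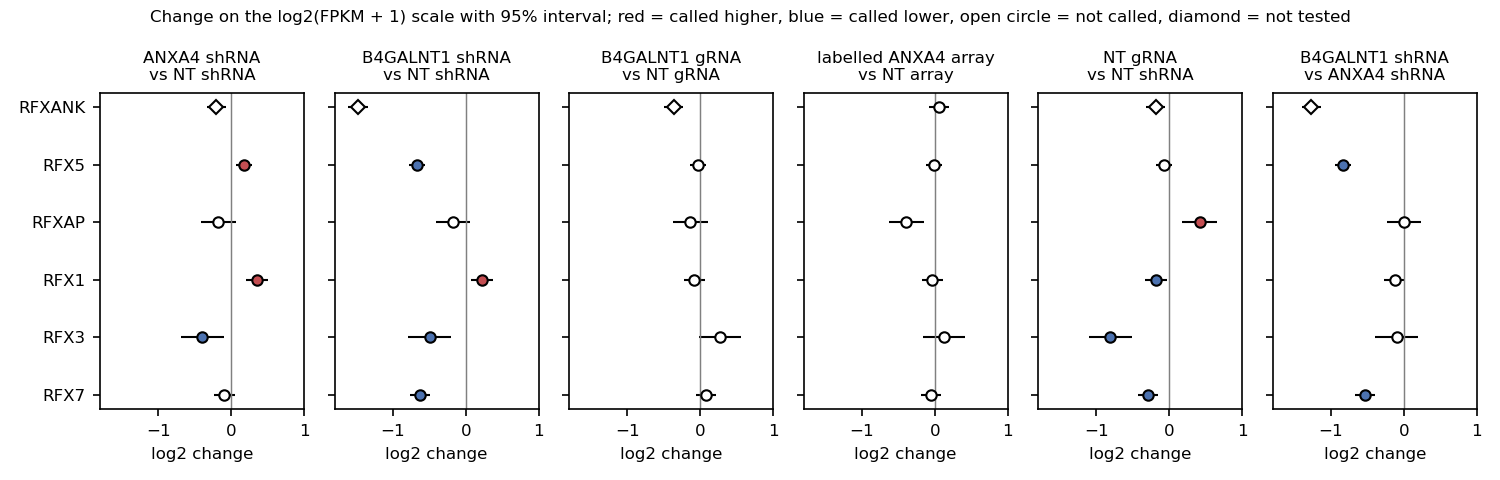
Change of RFXANK, RFX5, RFXAP, RFX1, RFX3 and RFX7 on the log2(FPKM + 1) scale with its 95% interval in 6 comparisons. Red marks genes called higher, blue genes called lower, open circles genes not called and diamonds RFXANK where it was not tested. RFX5 and RFX7 lie left of 0 with the B4GALNT1 shRNA at -0.67 and -0.62, and near 0 with the B4GALNT1 gRNA.

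RFX7, a factor linked to p53 signalling and growth control (chromosome 15, 56382731 to 56535483, minus strand), moved like RFX5 with the B4GALNT1 shRNA. It had 3.35, 3.10 and 3.30 FPKM there, against 5.86, 5.38 and 5.41 FPKM with NT shRNA. The groups were far apart and the mean was 41.4% lower (-0.62, SE 0.07, limma adjusted p = 3.13e-07). The B4GALNT1 gRNA libraries had 4.85, 4.76 and 4.40 FPKM, against 4.34, 4.23 and 4.47 with NT gRNA, and these overlapped (0.08, SE 0.07, limma adjusted p = 1, 95% interval -0.05 to 0.22). The change with the shRNA minus that with the gRNA was -0.71 (SE 0.09, limma adjusted p = 1.14e-05). In the ANXA4 shRNA libraries RFX7 was at 4.87, 5.43 and 5.14 FPKM, overlapping NT shRNA (-0.09, SE 0.07, limma adjusted p = 0.257). The B4GALNT1 shRNA libraries were lower than the ANXA4 shRNA libraries by -0.53 (SE 0.07, limma adjusted p = 2.01e-06). NT gRNA libraries were lower than NT shRNA libraries by -0.29 (SE 0.07, limma adjusted p = 0.00123).

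RFX1, a repressor and activator (chromosome 19, 14072342 to 14117134, minus strand), moved the other way. It had 8.19, 8.41 and 8.80 FPKM with the B4GALNT1 shRNA and 9.34, 9.71 and 8.97 with the ANXA4 shRNA, against 6.76, 7.40 and 7.14 with NT shRNA. Both groups lay above the control. It rose by 0.35 with the ANXA4 shRNA (SE 0.07, limma adjusted p = 0.000315, 31.6% higher) and by 0.23 with the B4GALNT1 shRNA (SE 0.07, limma adjusted p = 0.0134, 19.3% higher). Without B4GALNT1 shRNA replicate 3 the second change was 0.20 (adjusted p = 0.0548), and without NT shRNA replicate 1 it was 0.195 (adjusted p = 0.0594), so these libraries decide that call. The B4GALNT1 gRNA libraries had 5.69, 5.76 and 5.78 FPKM, against 6.64, 6.31 and 5.51 with NT gRNA (-0.08, SE 0.07, limma adjusted p = 1). RFX1 was lowest in the array libraries, at 3.75 to 3.94 FPKM where labelled ANXA4 array and 3.35 to 4.30 where labelled NT array.

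RFX3, a regulator of cilium genes (chromosome 9, 3270929 to 3489487, minus strand), was the least abundant tested member, at 31 to 103 reads per library. Its row in the file is transcript NM_001282117 with 1510 bases of exon, so its FPKM describes that annotation. It had 1.51, 1.60 and 1.67 FPKM with the B4GALNT1 shRNA and 2.02, 1.52 and 1.82 with the ANXA4 shRNA, against 2.65, 3.00 and 2.35 with NT shRNA. The NT shRNA libraries were above all 18 others. RFX3 fell by 0.50 with the B4GALNT1 shRNA (log2 scale, SE 0.14, limma adjusted p = 0.00717) and by 0.40 with the ANXA4 shRNA (SE 0.14, limma adjusted p = 0.0228). The second call was lost without ANXA4 shRNA replicate 2 (-0.33, adjusted p = 0.0949), without NT shRNA replicate 2 (-0.33, adjusted p = 0.0915) and with a pseudocount of 0.1 (-0.555, adjusted p = 0.0577). In the B4GALNT1 gRNA libraries RFX3 was at 1.43, 1.32 and 1.82 FPKM, against 0.745, 1.54 and 1.05 with NT gRNA (0.27, SE 0.14, limma adjusted p = 1, 95% interval -0.02 to 0.56). NT gRNA libraries were lower than NT shRNA libraries by -0.81 (SE 0.14, limma adjusted p = 0.0001).

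**Figure D4:**
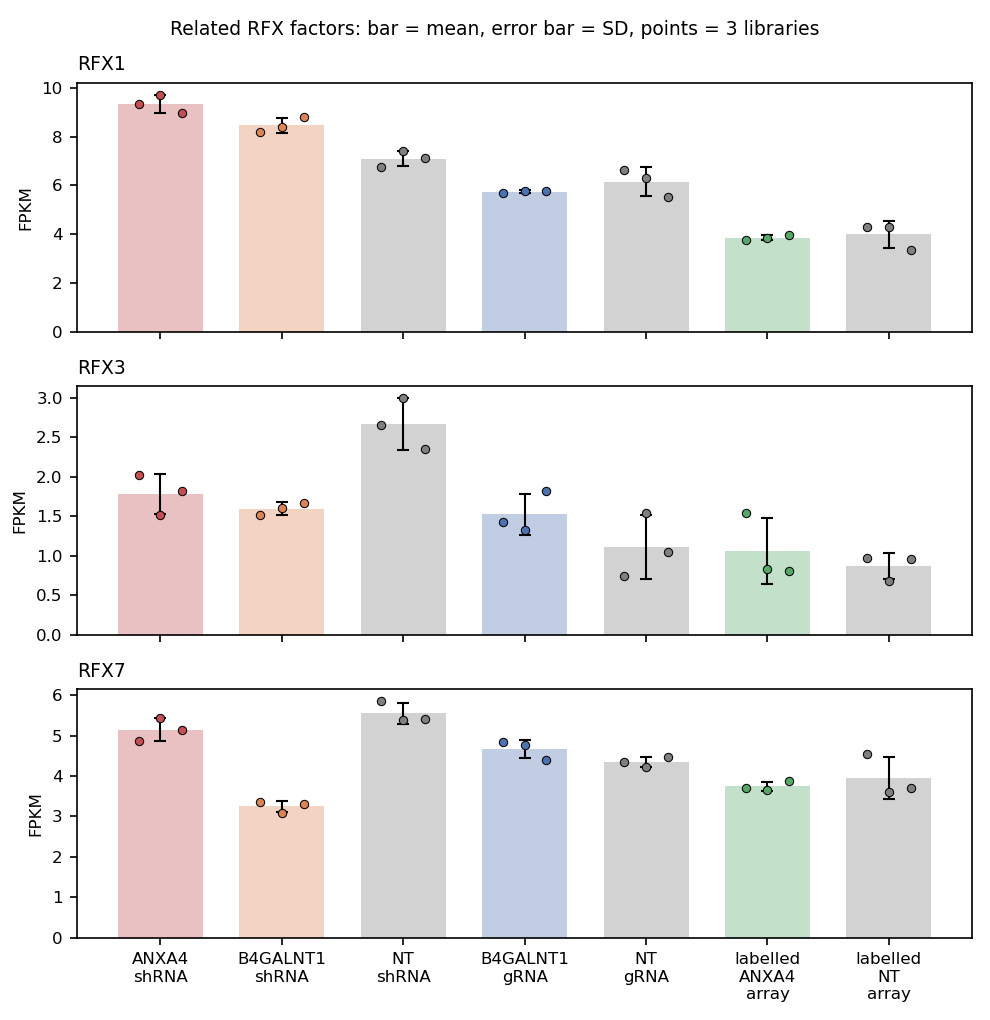
FPKM of RFX1, RFX3 and RFX7 in the 7 groups (bars, mean; error bars, SD; points, 3 libraries each). RFX1 was highest with the ANXA4 shRNA at 9.34 FPKM, RFX3 highest with NT shRNA at 2.67 FPKM, and RFX7 lowest with the B4GALNT1 shRNA at 3.25 FPKM.

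The genes around RFXANK were compared because they share its chromosomal neighbourhood. BORCS8, a subunit of a lysosome-positioning complex, starts 175 bases away on the opposite strand. It had 12.3, 10.3 and 10.1 FPKM with the B4GALNT1 shRNA, against 13.3, 12.4 and 13.6 with NT shRNA (-0.25, SE 0.07, limma adjusted p = 0.00915). With voom this became -0.22 (adjusted p = 0.0727), and without B4GALNT1 shRNA replicate 3 it became -0.20 (adjusted p = 0.0538). The readthrough transcript BORCS8-MEF2B, whose reads cannot be separated from those of BORCS8 and MEF2B, fell by 0.19 (SE 0.05, limma adjusted p = 0.00299), and with voom by 0.17 (adjusted p = 0.0779). NR2C2AP overlaps the end of RFXANK by 459 bases on the opposite strand and was counted by strand. It had 13.1, 10.3 and 10.3 FPKM with the B4GALNT1 shRNA, against 11.2, 12.2 and 10.8 with NT shRNA (-0.03, SE 0.08, limma adjusted p = 0.801). NR2C2AP rose with the ANXA4 shRNA to 20.4 ± 0.702 FPKM, against 11.4 ± 0.756 with NT shRNA (0.79, SE 0.08, limma adjusted p = 1.4e-07). MEF2B was not called with the B4GALNT1 shRNA (-0.10, SE 0.07, limma adjusted p = 0.275), and NCAN stayed under 1 FPKM. With the B4GALNT1 gRNA none of the 4 tested neighbours was called by limma or reached an unadjusted p under 0.05, with changes from -0.10 to 0.03. BORCS8-MEF2B came closest (-0.10, SE 0.05, limma unadjusted p = 0.0503). All its gRNA libraries lay below all NT gRNA libraries, as did those of the untested NCAN.

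The 5 genes whose log2(FPKM + 1) followed RFXANK most closely over the 21 libraries were TPD52L2 (Pearson r = 0.961), EIF2AK1 (0.950), GNAI2 (0.947), FKBP4 (0.946) and GATAD2A (0.931). Each was lowest in the B4GALNT1 shRNA libraries. FKBP4, a chaperone-associated immunophilin, averaged 64.9 ± 1.95 FPKM there against 125.3 ± 1.76 with NT shRNA, and 122.6 ± 3.48 with the B4GALNT1 gRNA against 123.3 ± 1.095 with NT gRNA (SD, n = 3 each). EIF2AK1, the heme-regulated kinase of eIF2 alpha, averaged 24.1 ± 0.935 FPKM with the shRNA against 48.1 ± 0.998, and 43.8 ± 0.250 FPKM with the gRNA against 43.4 ± 1.12 with their NT controls (SD, n = 3 each). GNAI2 averaged 31.9 ± 0.393 FPKM with the gRNA against 34.0 ± 0.887 with NT gRNA (SD, n = 3 each), and these groups did not overlap. In TPD52L2, FKBP4, EIF2AK1 and GATAD2A they did. Among the members RFX5 ranked 44 of 13678 genes (r = 0.880) and RFX7 ranked 944 (r = 0.550), while RFX1 had r = -0.422. The libraries fall into 7 groups that these genes share, so the values of r are descriptions. They also use the libraries on which RFXANK was chosen, which places genes low with the B4GALNT1 shRNA near the top.

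MHC class II genes, the classical targets of the complex, were mostly at low levels. Of 12 listed, 8 were tested, and HLA-DRA, HLA-DQA1, HLA-DOB and CD74 stayed under 1 FPKM in every library. The HLA genes are close paralogs that can share reads, so single values are uncertain. With the B4GALNT1 shRNA 2 of 8 fell relative to NT shRNA and 0 rose, with a median of -0.05 against -0.04 over all genes, where 26% of all genes were called lower and 18.4% higher. The share that fell is thus at the background. Centring each library on its median added 1 riser. HLA-DQB1 had 8.97, 8.66 and 9.29 FPKM, against 11.5, 12.0 and 11.1 with NT shRNA (-0.33, SE 0.07, limma adjusted p = 0.00102), and HLA-DOA fell by 0.28 (SE 0.08, limma adjusted p = 0.00548).

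Set against the ANXA4 shRNA, however, the B4GALNT1 shRNA libraries were lower in 6 of 8 MHC class II genes and higher in 0, with a median of -0.44 against -0.03 over all genes and 27.1% of all genes called lower. HLA-DRB1 had 6.28, 5.45 and 7.29 FPKM with the B4GALNT1 shRNA, against 9.57, 10.1 and 11.2 with the ANXA4 shRNA (-0.63, SE 0.09, limma adjusted p = 2e-05). The NT shRNA libraries were also low, at 7.33, 7.44 and 6.45 FPKM. Relative to NT shRNA, 6 of 8 genes were higher with the ANXA4 shRNA, where 25.6% of all genes were called higher, and 6 of 8 were higher with NT gRNA, where 22.4% were. In those same comparisons the 5 HEK 293 markers summed to 686 to 713 FPKM with the ANXA4 shRNA and 766 to 785 FPKM with NT gRNA, against 531 to 552 FPKM with NT shRNA, and their part in the result was not tested. They summed to 717 to 736 FPKM with the B4GALNT1 shRNA. VIM made up most of each sum, and the 5 markers did not all move together. With the ANXA4 shRNA 2 were called higher and 2 lower, where 25.6% and 26.3% of all genes were. With NT gRNA 5 were called higher, and with the B4GALNT1 shRNA 4, where 22.4% and 18.4% of all genes were. The summed level of the 12 genes was 29.6 to 33.4 FPKM with the B4GALNT1 shRNA and 34.1 to 37.8 FPKM with NT shRNA, against at least 42.3 FPKM in every other library. CIITA was at 0 in all libraries of the B4GALNT1 shRNA, ANXA4 shRNA and both gRNA groups.

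MHC class I genes, which the complex also helps to activate, had 10 of 13 tested. With the B4GALNT1 shRNA 5 fell and 0 rose relative to NT shRNA, with a median of -0.20 against -0.04 over all genes and 26% of all genes called lower. After median centring 1 rose as well. HLA-E had 21.2, 20.7 and 19.7 FPKM, against 24.0, 24.5 and 24.0 with NT shRNA (-0.22, SE 0.04, limma adjusted p = 0.000314). The peptide transporter subunit TAP2 fell by 0.33 (SE 0.07, limma adjusted p = 0.000458), and HLA-F by 0.36 (SE 0.08, limma adjusted p = 0.00179). The immunoproteasome subunit PSMB9 fell by 0.51 (SE 0.16, limma adjusted p = 0.0124). Against the ANXA4 shRNA, 8 of 10 were lower in the B4GALNT1 shRNA libraries and 0 higher, where 27.1% of all genes were called lower. The ANXA4 shRNA libraries themselves were higher than NT shRNA in 4 of 10 and lower in 0, but only 2 were called without NT shRNA replicate 3. Over all genes 25.6% were called higher and 26.3% lower in that comparison. NT gRNA libraries were higher than NT shRNA in 6 of 10 and lower in 1, where 22.4% of all genes were called higher and 26.5% lower. After median centring they were higher in 7 and lower in 0. HLA-E, lower with the B4GALNT1 shRNA, rose relative to NT shRNA by 0.12 with the ANXA4 shRNA (SE 0.04, limma adjusted p = 0.0303). The B4GALNT1 shRNA change minus the gRNA change was called for 4 of 10, all lower, where 16.9% of all genes were called lower, but after median centring for 1, which was higher, and with voom for 1.

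**Figure D5:**
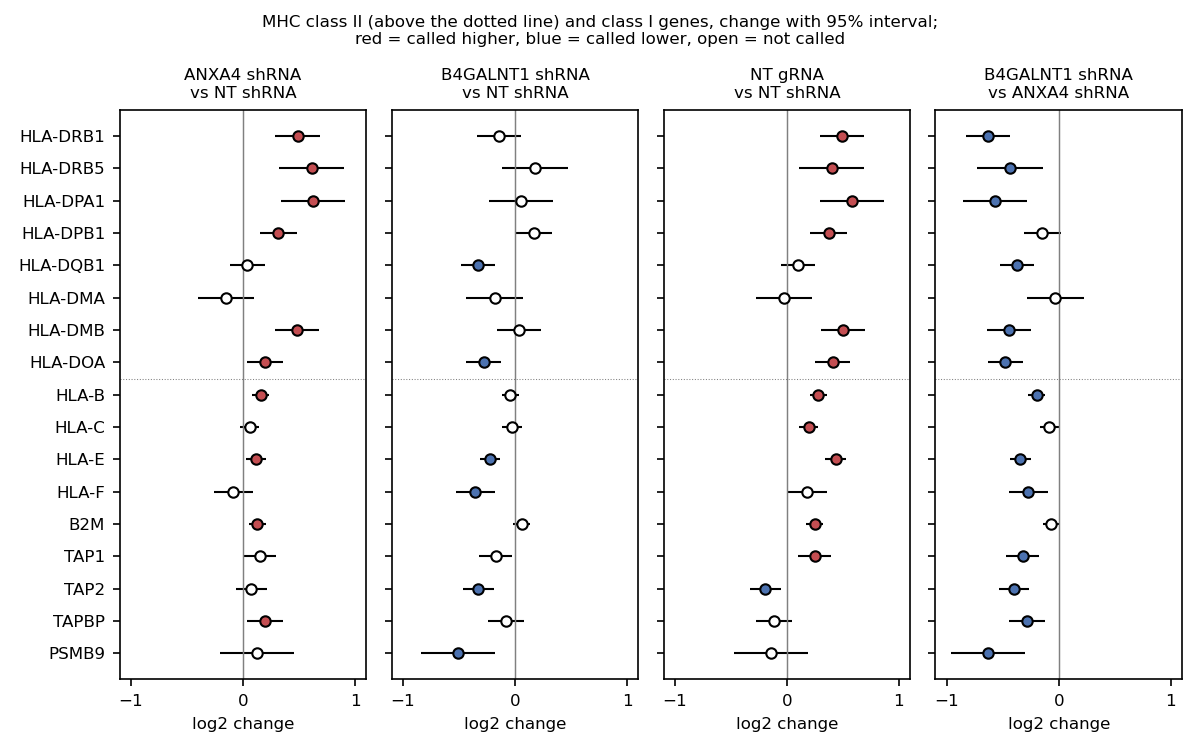
Change of the 8 tested MHC class II genes and 9 of the 10 tested MHC class I genes on the log2(FPKM + 1) scale with 95% intervals (red, called higher; blue, called lower; open, not called) for ANXA4 shRNA, B4GALNT1 shRNA and NT gRNA against NT shRNA, and B4GALNT1 shRNA against ANXA4 shRNA. The rightmost panel has 13 genes called lower, and the B4GALNT1 shRNA panel has 6.

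The partners that meet the RFX complex on DNA moved in both directions with the B4GALNT1 shRNA, where 44.4% of all genes were called, 18.4% higher and 26% lower. Of the 5 listed, 4 were called, and 3 were called with a pseudocount of 0.1, with no filter, without the array libraries or when any 1 of the B4GALNT1 shRNA or NT shRNA libraries was left out. The CREB-family factor ATF1 rose by 0.50 (SE 0.06, limma adjusted p = 3.19e-06) and the NF-Y subunit NFYC by 0.18 (SE 0.04, limma adjusted p = 0.00098), while NFYA fell by 0.22 (SE 0.05, limma adjusted p = 0.0027). NFYB was close to the threshold (0.19, SE 0.08, limma adjusted p = 0.0486). Relative to the same NT shRNA libraries, ATF1 also rose by 0.53 with the ANXA4 shRNA (limma adjusted p = 1.04e-06) and by 0.36 with NT gRNA (limma adjusted p = 0.000131). NFYC rose by 0.22 with the ANXA4 shRNA (limma adjusted p = 0.000112).

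Coactivators and the interferon gamma input were called at shares near that background of 44.4% of all genes, 18.4% higher and 26% lower. Of 10 coactivators and histone deacetylases 2 rose and 3 fell with the B4GALNT1 shRNA. SIN3A, a corepressor scaffold, fell by 0.62 (SE 0.05, limma adjusted p = 1.36e-08), and by 0.29 with NT gRNA relative to NT shRNA (SE 0.05, limma adjusted p = 0.000141). Of 7 genes of the interferon gamma input to CIITA 1 rose and 3 fell. After median centring, with voom, or without B4GALNT1 shRNA replicate 2 or 3 or NT shRNA replicate 2, 2 genes of this list were called. JAK1, the receptor kinase, rose by 0.52 (SE 0.04, limma adjusted p = 1.53e-08), and against the same control by 0.17 with the ANXA4 shRNA (limma adjusted p = 0.00259) and by 0.39 with NT gRNA (limma adjusted p = 7.68e-07).

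Of 10 targets reported for RFX7, 3 rose and 4 fell with the B4GALNT1 shRNA (median -0.03, against -0.04 over all genes), beside the same 18.4% higher and 26% lower over all genes. MXD4, a MYC antagonist, had 25.1, 24.8 and 26.9 FPKM against 39.8, 40.7 and 39.1 with NT shRNA (-0.62, SE 0.05, limma adjusted p = 6.72e-09). It was also lower relative to NT shRNA with the ANXA4 shRNA (-0.25, limma adjusted p = 0.000336) and with NT gRNA (-0.18, limma adjusted p = 0.00463). The translation inhibitor PDCD4 rose by 0.52 (SE 0.06, limma adjusted p = 1.18e-06), by 0.41 with the ANXA4 shRNA (limma adjusted p = 1.7e-05) and by 0.35 with NT gRNA (limma adjusted p = 0.000137). Of 25 tested intraflagellar transport and BBSome genes, the cilium set related to RFX3, 5 were called higher and 5 lower. This split depended on the scaling, with 6 higher and 1 lower after median centring and 5 higher and 2 lower with voom, and 5 were called in all without B4GALNT1 shRNA replicate 1. ANKRA2, the paralog of RFXANK, was not called (-0.19, SE 0.10, limma adjusted p = 0.134), but was in a fit of those groups alone. RFX2, the 1 other family member tested, fell by 0.26 (SE 0.06, limma adjusted p = 0.00105), and relative to the same control by 0.81 with the ANXA4 shRNA (SE 0.06, limma adjusted p = 7.77e-10). Of the 84 tested genes over all these lists, 0 were called by limma with the B4GALNT1 gRNA, 2 had an unadjusted p under 0.05 and voom called 0. In the array comparison these counts were 0, 8 and 0. The share of all genes at an unadjusted p under 0.05 is not given here, so these counts are no result about the lists.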

How the data were processed

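Messenger RNA was measured in 21 libraries. Per the submitters' processing notes, STAR, HOMER, DESeq2 1.14.1, R 3.3.2 and hg19 were used. Per the file headers, the authors counted sense-strand reads in exons, condensed to 1 row per gene, and deposited FPKM. Their 4 deposited comparison tables hold a mean normalized count per gene (treated as signal), log2 fold changes and adjusted p-values, used only as the authors' values.

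Reads were recovered from FPKM times exon length (whole within 0.1 for 95.6% to 99.5% of values); 84.8% to 86.0% lay in genes. Replicate pairs differed by more than sampling noise (chi-square per degree of freedom 2.25 to 4.16 without arrays and 5.91 to 13.03 with arrays). The fit described next shared 1 spread per gene over all groups. Its intervals may therefore be too narrow between array groups and too wide between the others. Log2(FPKM + 1) of the 13679 genes that reached 1 FPKM in 3 or more libraries was fitted with limma 3.58.1 (R 4.3.3) over 7 groups with an intensity trend. The pseudocount of 1 understates changes of low genes. A call needed p under 0.05 after Benjamini-Hochberg adjustment over all genes of that comparison. The procedure was tested on simulated data. Members, gene lists and tests were chosen with earlier results of these data known. RFXANK, though counted in the planned tests, was left out of every count of members called. Named were all members, neighbours within 50 kb, the targeted genes, up to 4 called genes per list by smallest p, and the 5 genes most alike; PSMB9, TCTA and RNAs named beside small counts were added after their values were seen. Single values of some list genes are not reported here. Alternatives were the pseudocount, filters, median centring, fewer groups, a replicate block, voom on recovered reads and leaving libraries out.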

Additional observations from a re-analysis of the deposited data

Results flagged for a closer look

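RFX5, RFX3, RFX7 and RFX1 changed differently with the B4GALNT1 shRNA than with the B4GALNT1 gRNA, each relative to its own NT control, by limma's test of the difference itself. The difference (shRNA change minus gRNA change, log2 scale) was -0.64 for RFX5 (adjusted p = 2.39e-06), -0.76 for RFX3 (adjusted p = 0.00622), -0.71 for RFX7 (adjusted p = 1.14e-05) and 0.31 for RFX1 (adjusted p = 0.0247), with n = 3 libraries in each of the 4 groups. Of all genes tested, 29.8% were called in this comparison. The RFX1 call was lost when any of 4 libraries was left out, with changes from 0.26 to 0.29 and adjusted p from 0.0553 to 0.0735. These were B4GALNT1 shRNA replicate 3, NT shRNA replicate 1 and NT gRNA replicates 1 and 2. In RFX3 the shRNA change was -0.50 and the gRNA change 0.27.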

How the results depend on the processing

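Genes called with the B4GALNT1 gRNA numbered 1 in the reported analysis, 2 without the filter (LINC00536 added) and 2 with the replicate block (MBLAC1 added). Without the array libraries they numbered 3 (TCTA and RFXANK added). RFXANK was chosen on these libraries, so whether it enters such a count is no test of it. Genes called between the array groups numbered 39, 3 with only those groups (ANXA4, ANXA11, SNORD18B), 114 with voom, and 23 to 55 with 1 library left out. Members called there went to 1 with voom (RFXAP). The other counts of genes and members kept within 1.5 times under every alternative. RFX1 between NT gRNA and NT shRNA (-0.18, adjusted p = 0.0389) lost its call without the filter (0.0606), after median centring (-0.137), with only those groups, with voom, and without NT shRNA replicate 2 or 3 or NT gRNA replicate 2 or 3 (-0.115 to -0.199). MHC class II calls in the shRNA against gRNA difference ranged from 0 to 3.

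Directions that reversed belonged to uncalled values near 0. With the B4GALNT1 shRNA NR2C2AP became 0.0181 (median-centred), 0.0238 (voom) and -0.136 to 0.025 leaving out 1 library; with the gRNA it became -0.039 to 0.0814. Between the array groups, leaving out 1 library gave -0.00636 to 0.142 for RFXANK, -0.0637 to 0.0497 for RFX5, -0.127 to 0.0148 for RFX1, -0.0346 to 0.211 for RFX3 and -0.109 to 0.0277 for RFX7. RFXAP between both targeting shRNAs became -3.64e-05 with a pseudocount of 0.1 and -0.0893 to 0.0587 without 1 library; its difference between reagents became 0.00892 after centring and 0.0482 at the highest without 1 library, -0.127 at the lowest. The causes were not tested. Same-numbered replicates correlated at -0.146 to 0.090 in their deviations, which cannot exclude shared handling of libraries with the same number. In every group without arrays, replicate 1 had the most reads and replicate 2 the fewest. Replicate 3 had the lowest share of reads in genes in every group. The replicate block left 4 members called with the B4GALNT1 shRNA. Depth limits CIITA, and 31 to 103 reads per library limit RFX3.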
